A study of Mus musculus with 4 samples.

Results

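Gene expression in uninjured kidneys of mice labelled Tet2KO was compared with that in kidneys of wild-type (WT) mice. The comparison rests on 2 of the 4 arrays of the study, chosen by their genotype and treatment labels. Tet2KO sham is the array of Tet2 knockout mice after sham surgery, the operation without ischemia, and WT sham is the array of wild-type mice after the same surgery. The other 2 arrays, Tet2KO IR and WT IR, came from mice of the same genotypes after 60 min of renal ischemia and 24 h of reperfusion, and are used here only to show where the same genes stood after injury. All 4 labels name male C57Bl/6 mice, housed free of specific pathogens, and each array held whole-kidney RNA pooled from 3 mice. The age of the mice, the design of the knockout allele and the cells it acts in are not given in the sources used here.

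Tet2 encodes a dioxygenase that oxidises methylated cytosine in DNA, a step towards removing the methyl mark. Its relatives Tet1 and Tet3 catalyse the same reaction. Immediate early genes respond to stimuli without new protein synthesis, and their transcripts decay quickly. Genes such as Havcr1 are nearly silent in healthy tubules and are known as markers of tubular injury.

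With 1 array of pooled RNA in each group the variation between mice is unknown, and no test was made. Every difference is a description of these arrays, and their number limits the precision of all values. Values are log2 signals, so a difference of 1 is a 2-fold difference, and genes that reached this size are called higher or lower here. A floor was set at a log2 signal of 5.72, under which a signal was taken as not distinguishable from background. A gene was measured if it reached the floor in at least 1 sham array, and where the other array lay under the floor the fold is a lower bound, written as at least. Different probe sets for a gene gave log2 ratios whose spread covers part of the technical error and none of the differences between mice, with an SD of 0.19 in the sham pair over 15305 probe sets of 5712 genes. In whole-kidney RNA, fewer cells of a type and less RNA per cell cannot be told apart.

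The arrays held kidney RNA of male mice. Of 12 kidney identity genes, among them the tubular receptor Lrp2 and the thick-limb protein Umod, 10 had a probe set, all 10 were measured, and none differed by 2-fold between the sham arrays. The water channel Aqp2 had the largest difference among them, with 10.95 in Tet2KO sham and 11.71 in WT sham. The Y-linked genes Uty and Eif2s3y had 8.55 and 9.90 in Tet2KO sham, and 8.48 and 9.87 in WT sham. The differences were 0.02 for Eif2s3y and 0.07 for Uty on the log2 scale. Xist, the X-inactivation transcript, was checked with them and lay over the floor in both arrays. It had 6.60 in Tet2KO sham and 6.38 in WT sham, a difference of 0.22.

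The Tet2 transcript was not consistently lower in Tet2KO sham than in WT sham. Its brighter probe set had 10.25 in Tet2KO sham, 9.84 in WT sham, 8.60 in Tet2KO IR and 9.30 in WT IR. Its other probe set had 9.87 in Tet2KO sham, 9.96 in WT sham, 8.74 in Tet2KO IR and 9.16 in WT IR. Of the 4 arrays Tet2KO sham thus had the highest value of the first and the second highest of the other, and the sham ratios of 0.41 and -0.09 on the log2 scale have opposite signs. Probes that lie outside a deletion cannot check it, and where these lie was not known here, so every direction below is that of the array labelled Tet2KO. The other family members differed little: Tet3 had 6.19 in Tet2KO sham and 6.24 in WT sham. Tet1 lay near the floor with 5.78 in Tet2KO sham and 5.77 in WT sham, and its other 3 probe sets were under the floor in both arrays. Among 23 measured genes of DNA methylation, demethylation and their partners, only the stress gene Gadd45g was at 2-fold, with 9.17 in Tet2KO sham, 10.22 in WT sham, 9.87 in Tet2KO IR and 9.27 in WT IR, a 2.06-fold lower value in Tet2KO sham.

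The sham arrays differed in few genes, and most of those were lower in Tet2KO sham. Of 13474 measured genes, 25 were higher (0.186%) and 114 were lower (0.846%) at 2-fold or more. Counted over 23714 measured probe sets, 0.181% were higher and 0.818% lower. At 1.5-fold the counts were 138 higher and 327 lower, and at 4-fold they were 5 higher and 14 lower. The bulk of the genes leaned the other way by a small amount: the median log2 ratio was 0.036, with 7968 genes above 0 and 5474 below. Near the 2-fold limit the choice of threshold decides single genes, since 23 genes had a log2 ratio between 0.9 and 1 in size and 23 had one between 1 and 1.1. Of the 139 genes, 53 had another measured probe set. In 47 of these all other probe sets had the same sign, and in 3, Apobec2, D3Ertd751e and C920006O11Rik, named here after their values were seen, no other probe set did.

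**Figure D1:**
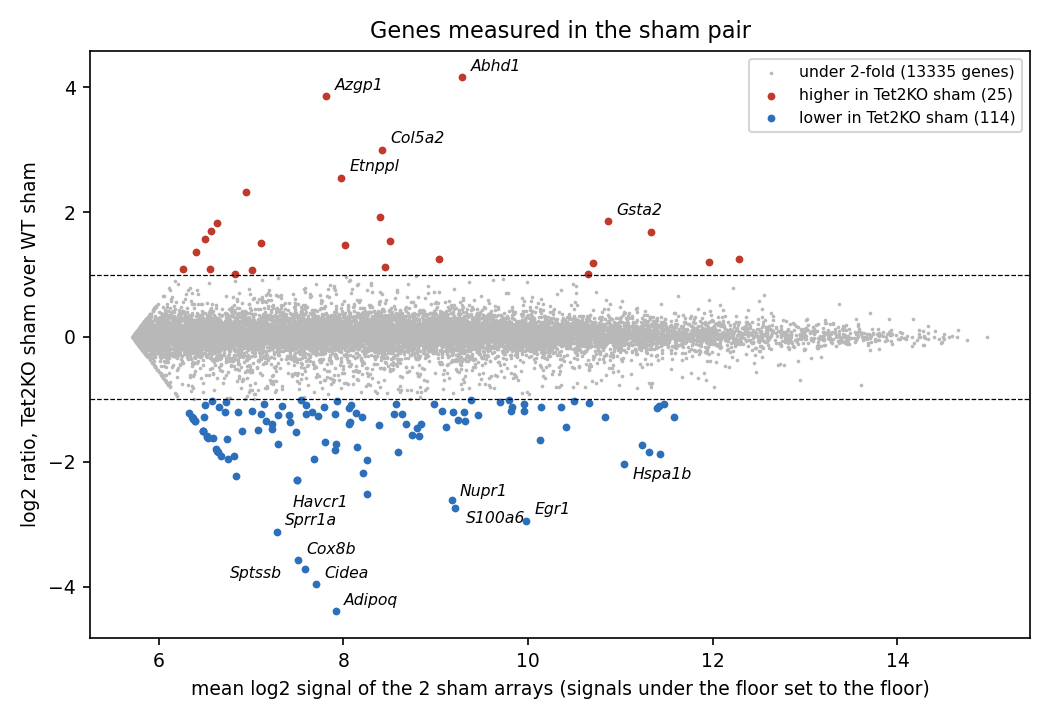
Log2 ratio of Tet2KO sham over WT sham (vertical axis) against the mean log2 signal of the 2 sham arrays (horizontal axis) for 13474 measured genes, 1 point per gene, with dashed lines at 2-fold. The 25 higher genes (red) and 114 lower genes (blue) stand apart from a narrow band of genes around 0, and the genes farthest down include Adipoq, Cidea, Sptssb and Cox8b.

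The signals of the higher and lower genes were also ranked over all 4 arrays. Among the 114, WT sham had the highest signal of all 4 arrays in 81, and Tet2KO sham had the lowest in 63. In 47 of them WT IR was itself at least 2-fold under WT sham. Among the 25 higher genes, Tet2KO sham had the highest signal of the 4 arrays in 17, and WT sham the lowest in 10. These genes were chosen by the same sham signals, so such ranks follow in part from the choice. They are no separate support for a difference, here or in the lists below. Of the lower genes, 33 belong to 5 lists of genes described next, namely immediate early, tubular injury, heat shock, fat and urothelium, and 66 belong to no list used here.

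Markers of fat and of the urothelium, tissues that adjoin the kidney, moved with the lower genes. For the sham counts of every list below, the base is all 13474 measured genes. Of these, 5474 were below 0, 0.846% were lower and 0.186% higher at 2-fold. Of 30 fat markers, 24 were measured, 20 were below 0 and 8 were lower at 2-fold, with a median log2 ratio of -0.46. Their summed linear signal was 46659 in Tet2KO sham, 57358 in WT sham, 35735 in Tet2KO IR and 39312 in WT IR. Such a sum is set mainly by the brightest members and need not follow the list. After ischemia-reperfusion the sum was lower in Tet2KO IR, while the median log2 ratio was 0.61, with 8 markers higher and 2 lower at 2-fold. Under the floor were 9 matched markers in Tet2KO sham, 3 in WT sham, 4 in Tet2KO IR and 9 in WT IR. Of 14 urothelium markers, 11 were measured, 10 were below 0 and 6 were lower at 2-fold, with a median of -1.51. Their summed linear signal was 1506 in Tet2KO sham, 2938 in WT sham, 2039 in Tet2KO IR and 3271 in WT IR, with 6 matched markers under the floor in Tet2KO sham and 2 in each of the other arrays. Both lists moved in the same array as each of the lower groups that follow, and their part in those results was not tested.

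Immediate early genes were lower in Tet2KO sham. These genes encode transcription factors and signalling brakes that are transcribed within minutes of a stimulus. Of 35 measured members, 8 were lower and 0 higher at 2-fold, 31 were below 0, and the median log2 ratio was -0.22, against 0.036 over all measured genes. The zinc-finger transcription factor Egr1 had 8.51 in Tet2KO sham, 11.45 in WT sham, 10.60 in Tet2KO IR and 10.85 in WT IR. It was 7.69-fold lower in Tet2KO sham than in WT sham, the largest difference among lower genes over the floor in both sham arrays, and only Tet2KO sham lay clearly under the other 3 arrays. The AP-1 subunit Fos had 7.95 in Tet2KO sham, 9.53 in WT sham, 8.39 in Tet2KO IR and 8.86 in WT IR, a 2.97-fold lower value in the sham pair.

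Btg2, an antiproliferative gene that is also a p53 target, had 8.39 in Tet2KO sham, 9.83 in WT sham, 10.01 in Tet2KO IR and 9.39 in WT IR, and was 2.72-fold lower in the sham pair. A second probe set had a ratio of -0.77. The AP-1 subunit Junb had 6.79 in Tet2KO sham, 8.04 in WT sham, 8.69 in Tet2KO IR and 7.52 in WT IR, which is 2.36-fold lower. The orphan nuclear receptor Nr4a1 was 2.36-fold lower too, with 8.01 in Tet2KO sham, 9.25 in WT sham, 8.66 in Tet2KO IR and 8.42 in WT IR. In all 3 genes Tet2KO sham was the lowest array.

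Dusp1, a phosphatase that switches off MAP kinases, had 10.94 in Tet2KO sham, 12.01 in WT sham, 11.53 in Tet2KO IR and 9.78 in WT IR, and was 2.11-fold lower in the sham pair. Zfp36, which encodes an RNA-binding protein that destabilises cytokine transcripts, was 2.09-fold lower, with 9.42 in Tet2KO sham, 10.49 in WT sham, 10.61 in Tet2KO IR and 10.11 in WT IR. The stress transcription factor Atf3 was 2.04-fold lower, with 6.07 in Tet2KO sham, 7.09 in WT sham, 8.09 in Tet2KO IR and 7.89 in WT IR. Over the 8 lower genes, Tet2KO sham was the lowest of the 4 arrays in 7, with Dusp1 the exception, and WT sham was the highest in 4. The members Fosl2, Klf10, Ier2, Csrnp1 and Jun, named after their values were seen, had log2 ratios of -0.97, -0.83, -0.79, -0.71 and -0.63 and stayed short of 2-fold. At the other end of the list, and named likewise, Egr4 had a ratio of 0.15 and Ccn2 one of 0.09.

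The promoters of 3 of these lower genes are shown because each holds a motif that immediate early promoters are known for. The sequences are from RefSeq (GRCm38.p6), read 5′ to 3′ on the gene's strand over the 250 bases before the gene's start, with the motif in capitals. The cyclic AMP response element was searched as TGACGTCA, and the CArG box, the binding motif of serum response factor, by its usual pattern. Both motifs read the same on the 2 strands, and the search covered these 250 bases and the 50 after the start.
Btg2 (chr1:134079156-134079405, minus strand) and Dusp1 (chr17:26508473-26508722, minus strand) hold TGACGTCA 166 and 143 bases before the start, and Zfp36 (chr7:28379229-28379478, minus strand) holds a CArG box 58 bases before it.
Btg2: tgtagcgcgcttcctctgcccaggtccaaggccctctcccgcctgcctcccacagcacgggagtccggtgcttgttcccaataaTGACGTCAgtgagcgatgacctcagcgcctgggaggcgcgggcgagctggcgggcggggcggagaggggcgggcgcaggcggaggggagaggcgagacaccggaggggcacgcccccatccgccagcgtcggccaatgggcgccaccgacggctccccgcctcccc
Dusp1: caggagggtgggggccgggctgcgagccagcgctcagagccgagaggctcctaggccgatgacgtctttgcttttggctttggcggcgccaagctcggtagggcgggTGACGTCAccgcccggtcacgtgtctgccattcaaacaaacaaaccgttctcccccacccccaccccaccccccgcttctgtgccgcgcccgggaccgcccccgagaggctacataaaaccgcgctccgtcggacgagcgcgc
Zfp36: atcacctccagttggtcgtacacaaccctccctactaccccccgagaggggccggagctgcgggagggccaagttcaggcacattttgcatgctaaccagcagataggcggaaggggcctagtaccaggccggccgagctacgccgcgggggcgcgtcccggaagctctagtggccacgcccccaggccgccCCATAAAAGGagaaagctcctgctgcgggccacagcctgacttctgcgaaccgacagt

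Of the 29 immediate early genes with a promoter in the table, 4 held TGACGTCA, namely Btg2, Dusp1, Maff and Errfi1, against 2.03% of the promoters of all 27025 genes and 3.24% of those of measured genes. A CArG box stood in 4 of 29, namely Egr2, Dusp5, Zfp36 and Srf, against 1.81% over all genes. Among the lower immediate early genes, 7 had a promoter in the table, of which 2 held TGACGTCA and 1 a CArG box. Of the carriers, Maff had a sham log2 ratio of -0.11, Errfi1 -0.33, Dusp5 -0.02 and Srf 0.07, and Egr2 was not among the lower genes either. Holding the motif and being lower at 2-fold thus did not go together in each gene. Promoters further upstream were not searched.

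Some heat shock chaperones were lower in Tet2KO sham, and most of the list was not. Of 19 measured members 4 were lower and 0 higher at 2-fold, with a median of -0.14, which was 0.033 when only plain probe sets were used. Over all measured genes 0.846% were lower at 2-fold. The inducible chaperone Hspa1b had 10.02 in Tet2KO sham, 12.06 in WT sham, 11.04 in Tet2KO IR and 11.59 in WT IR, and was 4.10-fold lower in the sham pair. Its other 2 probe sets were lower as well, with 9.30 and 9.54 in Tet2KO sham, against 11.47 and 11.71 in WT sham. Hspa1a, its near-identical neighbour, was 2.74-fold lower, with 8.07 in Tet2KO sham, 9.53 in WT sham, 8.51 in Tet2KO IR and 8.81 in WT IR, but probes of either gene can bind transcripts of both, so these are uncertain as separate results.

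The small heat shock protein Cryab had 10.37 in Tet2KO sham, 12.10 in WT sham, 11.004 in Tet2KO IR and 12.07 in WT IR. It was 3.32-fold lower in the sham pair, 3.91-fold on its other probe set over the floor, and lower in the knockout-labelled array of both pairs. The small heat shock protein Hspb1 was 2.17-fold lower, with 9.27 in Tet2KO sham, 10.38 in WT sham, 12.64 in Tet2KO IR and 11.90 in WT IR. Tet2KO sham was the lowest of the 4 arrays in all 4 genes, and WT sham the highest in 3, Hspb1 being highest after ischemia-reperfusion. The remaining 15 members were under 2-fold, and their log2 ratios ran between -0.67 for the co-chaperone Dnajb4 and 0.41 for the small heat shock protein Hspb8, both named after their values were seen. Over the whole list 11 of 19 members were below 0.

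The promoters of Hspa1b and Hspb1 are shown because lower heat shock genes shared a motif. The heat shock element, the site of heat shock factors, was searched as GAANNTTC, which also reads the same on both strands. Hspa1b (chr17:34959239-34959488, minus strand) holds it 104 bases before the start, and Hspb1 (chr5:135887669-135887918, plus strand) 117 and 97 bases before it, in capitals.
Hspa1b: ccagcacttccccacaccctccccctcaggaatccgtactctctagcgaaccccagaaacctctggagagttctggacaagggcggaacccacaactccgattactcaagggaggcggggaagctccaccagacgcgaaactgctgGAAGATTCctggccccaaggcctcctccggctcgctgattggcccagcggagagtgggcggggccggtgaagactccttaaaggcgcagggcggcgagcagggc
Hspb1: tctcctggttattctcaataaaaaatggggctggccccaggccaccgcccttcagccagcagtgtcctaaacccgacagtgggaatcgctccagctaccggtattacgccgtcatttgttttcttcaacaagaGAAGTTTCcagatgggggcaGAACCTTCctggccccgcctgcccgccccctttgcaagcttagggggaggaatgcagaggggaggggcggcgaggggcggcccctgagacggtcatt

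The motif stood in all 3 of the lower heat shock genes that have a promoter in the table, Hspa1a, Hspa1b and Hspb1, and in 10 of all 17 list members with one, against 9.04% of the promoters of all genes and 7.14% of those of measured genes. Over all lower genes it stood in 10 of 82, and over the higher genes in 4 of 18, namely Asns, Nat8f3, Ugt2b37 and Ugt2b5. Members with the motif that were not lower at 2-fold include Hspd1 and Hspe1.

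Genes of tubular injury were lower in Tet2KO sham, in kidneys without ischemia. Of 33 measured members 7 were lower and 0 higher at 2-fold, 28 were below 0, and the median was -0.33. Over all measured genes 0.846% were lower at 2-fold, and 5474 of 13474 were below 0. Havcr1, which encodes the injury receptor KIM-1, had 7.002 in Tet2KO sham, 9.52 in WT sham, 14.13 in Tet2KO IR and 13.68 in WT IR. It was 5.72-fold lower in the sham pair on this probe set and 2.59-fold on the other, while both injured arrays lay far above both sham arrays. S100a6, a small calcium-binding protein, had 7.84 in Tet2KO sham, 10.58 in WT sham, 13.03 in Tet2KO IR and 12.20 in WT IR, and was 6.68-fold lower. The stress-induced chromatin protein Nupr1 had 7.86 in Tet2KO sham, 10.48 in WT sham, 9.99 in Tet2KO IR and 8.31 in WT IR. Nupr1 was 6.13-fold lower in the sham pair and is the only lower member of this list in which WT sham exceeded both injured arrays.

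Keratins and fibrinogen chains were among the lower genes. The simple-epithelial keratin Krt18 was 4.54-fold lower, with 7.12 in Tet2KO sham, 9.31 in WT sham, 10.51 in Tet2KO IR and 9.92 in WT IR. Its partner keratin Krt8, named after its values were seen, had a log2 ratio of -0.23, so the pair did not move together. Krt19 was 2.85-fold lower, with 6.14 in Tet2KO sham, 7.65 in WT sham, 8.84 in Tet2KO IR and 7.56 in WT IR. The fibrinogen chain Fgg was 3.93-fold lower, with 7.26 in Tet2KO sham, 9.24 in WT sham, 13.44 in Tet2KO IR and 12.31 in WT IR. Its companion Fga was 2.10-fold lower, with 8.44 in Tet2KO sham and 9.52 in WT sham. In all 7 lower members Tet2KO sham was the lowest of the 4 arrays, which follows in part from their choice by a lower signal there than in WT sham. Lcn2, a secreted marker of tubular injury, had 5.31 in Tet2KO sham, under the floor, and 6.36 in WT sham, at least 1.56-fold lower, beside 13.57 in Tet2KO IR and 12.03 in WT IR. Vcam1, an adhesion molecule of injured tubules and vessels, leaned the other way with 7.36 in Tet2KO sham and 6.59 in WT sham.

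**Figure D2:**
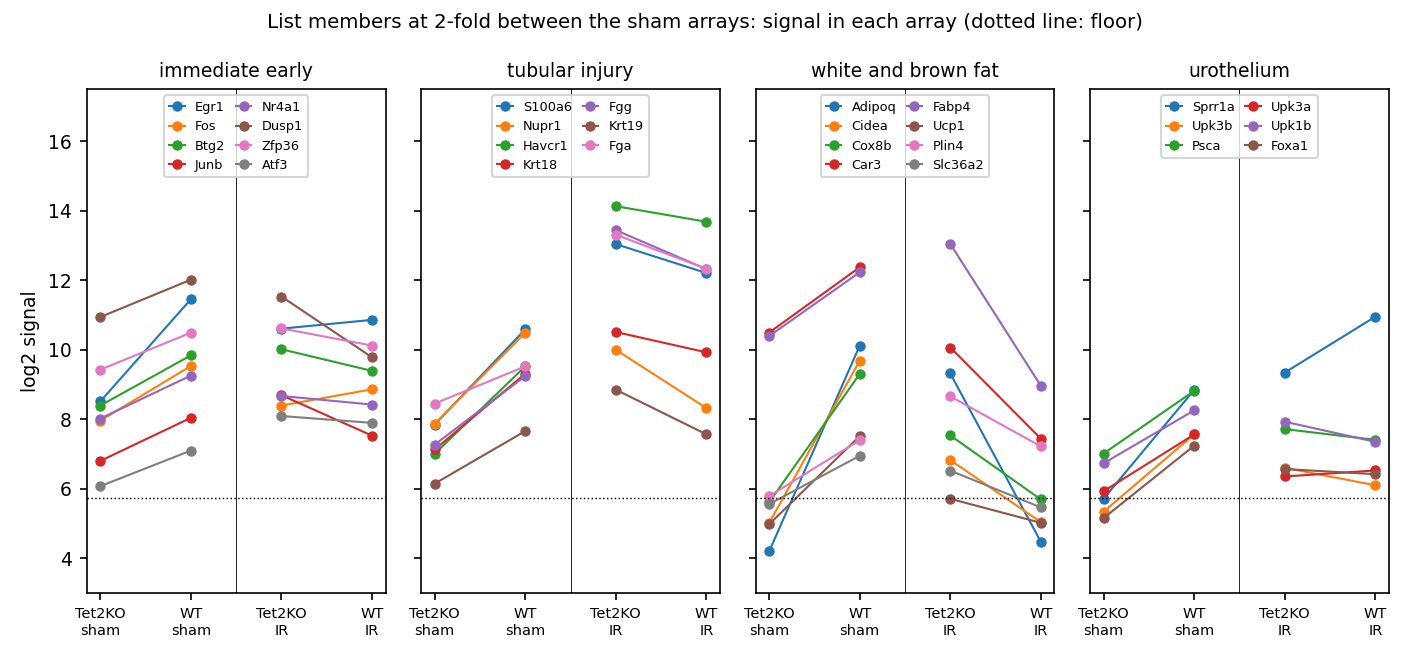
Log2 signal (vertical axis) in the Tet2KO sham, WT sham, Tet2KO IR and WT IR arrays for the members of 4 gene lists that differed by 2-fold between the sham arrays, 1 coloured line per gene within each pair. In every panel the Tet2KO sham point lies under the WT sham point, while after ischemia-reperfusion the Tet2KO point lies above the WT point in fat genes such as Fabp4 (13.04 against 8.95) and under it in Sprr1a (9.34 against 10.95).

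Among the measured fat markers the adipocyte hormone gene Adipoq differed most, with 4.19 in Tet2KO sham, under the floor, 10.11 in WT sham, 9.31 in Tet2KO IR and 4.46 in WT IR. It was at least 21.0-fold lower in the sham pair, and the 2 arrays in which it is high carry different genotypes and treatments. Cidea and Cox8b, genes of brown fat, were at least 15.5-fold and at least 11.9-fold lower. Cidea had 5.01 in Tet2KO sham, 9.68 in WT sham, 6.82 in Tet2KO IR and 5.03 in WT IR. Ucp1, the uncoupling protein that defines brown fat, had 4.97 in Tet2KO sham, 7.51 in WT sham, 5.70 in Tet2KO IR and 5.01 in WT IR, so it reached the floor in WT sham alone.

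The lipid chaperone Fabp4 had 10.39 in Tet2KO sham, 12.22 in WT sham, 13.04 in Tet2KO IR and 8.95 in WT IR, and was 3.57-fold lower in the sham pair. Its probe sets disagreed: the other 2 over the floor had log2 ratios of -1.63 and 0.21. The carbonic anhydrase Car3 was 3.68-fold lower, with 10.49 in Tet2KO sham, 12.37 in WT sham, 10.06 in Tet2KO IR and 7.43 in WT IR. The lipid-droplet protein Plin4 was 3.06-fold lower and the proton-coupled amino acid transporter Slc36a2 at least 2.33-fold. Of the 8 lower fat markers, WT sham was the highest of the 4 arrays in 6. The other 16 measured fat markers were under 2-fold: the lipoprotein lipase Lpl, named with the next gene after its values were seen, had a log2 ratio of 0.00 and Pck1, of glucose synthesis, the highest of the list at 0.19.

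Urothelial genes were lower in Tet2KO sham near the floor. The cornified-envelope gene Sprr1a had 5.71 in Tet2KO sham, 8.84 in WT sham, 9.34 in Tet2KO IR and 10.95 in WT IR, and was at least 8.67-fold lower in the sham pair. The uroplakin Upk3a had 5.92 in Tet2KO sham, 7.56 in WT sham, 6.35 in Tet2KO IR and 6.52 in WT IR, a 3.10-fold lower value. Upk1b, another uroplakin of the bladder-lining plaque, was 2.87-fold lower, with 6.73 in Tet2KO sham, 8.25 in WT sham, 7.92 in Tet2KO IR and 7.34 in WT IR, and its other 3 probe sets were lower too, 2 of them at 2-fold with 1 a bound. The surface antigen Psca was 3.49-fold lower, the uroplakin Upk3b at least 3.57-fold and the pioneer transcription factor Foxa1 at least 2.85-fold. Tet2KO sham was the lowest of the 4 arrays in all 6 genes. Upk3b and Krt19 are also mesothelial markers, of which 3 were measured, while the third, Wt1, had 6.52 in Tet2KO sham and 6.42 in WT sham. The urothelium median of -1.51 depends on how low signals are treated, and was -0.42 when the floor was replaced by a pseudocount.

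Measured markers of muscle, adrenal gland, red blood cells and pancreas had list medians near 0. The skeletal muscle list had a median of -0.02 over 8 measured members, adrenal gland -0.07 over 7, red blood cells -0.01 over 5 and pancreas 0.03 over 5, each with 0 members at 2-fold. Only 6 of the 11 listed red blood cell genes matched a probe set with 1 symbol, so the other listed genes were not compared. The median does not cover those genes, and equal red blood cell RNA in the 2 sham arrays cannot be read from it. Probe sets without exactly 1 symbol, of which 45 were lower at 2-fold, are not assigned to genes here. Of the 5 measured, 3 were below 0 and 2 above. Alas2 differed most, with 6.59 in Tet2KO sham, 7.43 in WT sham, 7.58 in Tet2KO IR and 6.57 in WT IR. In the liver list the carrier protein Ttr was lower at 2-fold, with 10.94 in Tet2KO sham, 12.21 in WT sham, 9.94 in Tet2KO IR and 10.64 in WT IR, a 2.42-fold difference that its other 3 probe sets shared. Albumin, named after its values were seen as Alb, had a log2 ratio of 0.14.

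**Figure D3:**
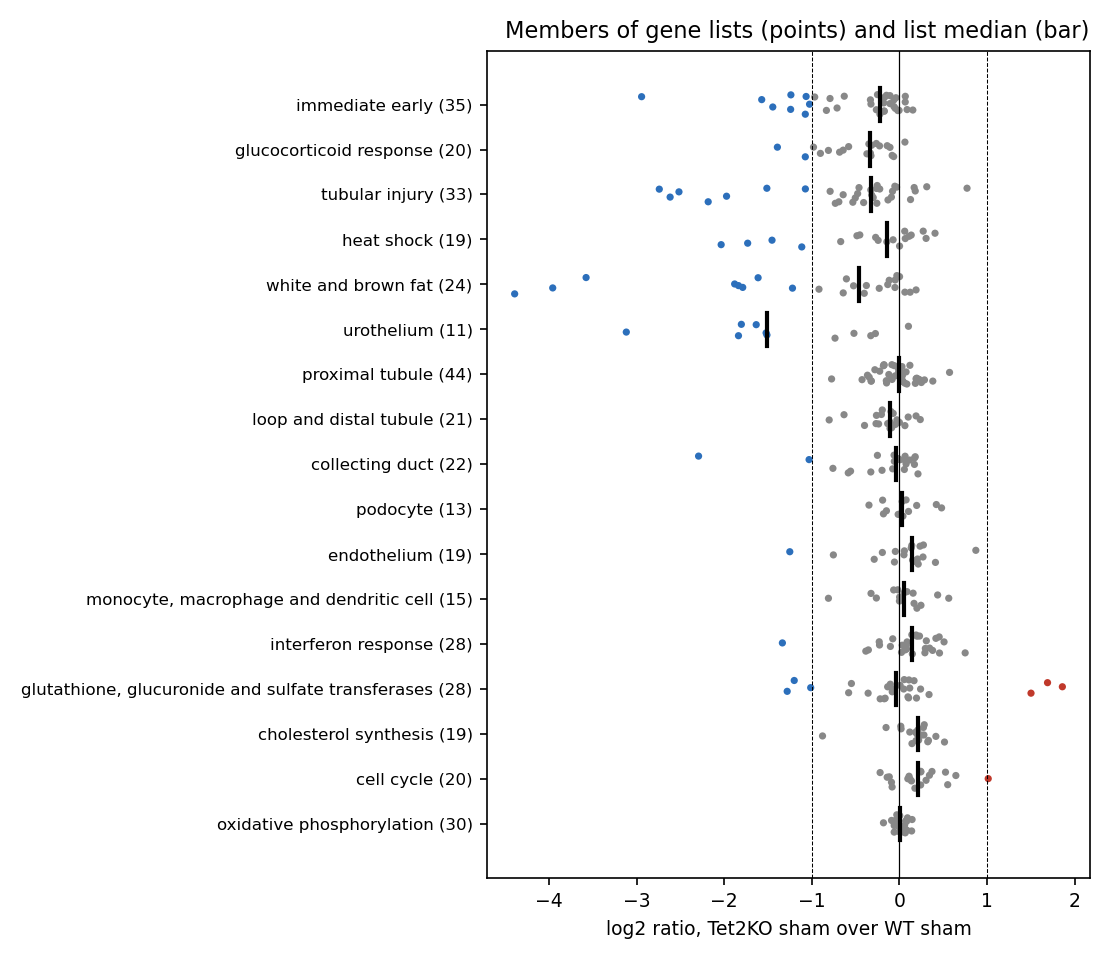
Log2 ratio of Tet2KO sham over WT sham (horizontal axis) for measured members of 17 gene lists, with the number measured in brackets, the list median as a bar and dashed lines at 2-fold. Members of the immediate early, tubular injury, heat shock, fat and urothelium lists reach far to the left, while proximal tubule, podocyte and oxidative phosphorylation genes cluster around 0.

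In the lists of nephron segments, 2 collecting duct genes differed by 2-fold between the sham arrays. None of 44 measured proximal tubule genes was at 2-fold, and their median was -0.00. The largest differences were in the aldo-keto reductase Akr1c21, with 13.21 in Tet2KO sham and 13.99 in WT sham, and the organic anion transporter Slc22a19, with 12.78 in Tet2KO sham and 12.21 in WT sham. Among 21 loop and distal tubule genes none was at 2-fold and the median was -0.11, with 17 below 0, against 5474 of all 13474 measured genes. Podocyte genes had a median of 0.03 over 13, with 0 at 2-fold. In the collecting duct 2 of 22 genes were lower at 2-fold, both transcription factors. Elf5, an ETS factor of principal cells, had 6.35 in Tet2KO sham, 8.65 in WT sham, 6.80 in Tet2KO IR and 6.90 in WT IR. It was 4.90-fold lower, but a second probe set had a ratio of -0.07. Gata3 was 2.04-fold lower, with 7.42 in Tet2KO sham, 8.45 in WT sham, 7.48 in Tet2KO IR and 7.90 in WT IR. The collecting duct list as a whole had a median of -0.04.

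Immune, vascular and stromal genes differed little. Neutrophil, macrophage, lymphocyte and cytokine lists had medians of 0.04, 0.05, 0.09 and 0.03 with 0 members at 2-fold in each. MHC class II genes had a median of 0.24, with H2-Aa at 9.29 in Tet2KO sham and 8.95 in WT sham. Interferon response genes had a median of 0.14 over 28, and only Ifi27l2a was at 2-fold, with 8.57 in Tet2KO sham, 9.90 in WT sham, 9.25 in Tet2KO IR and 6.24 in WT IR. Among 19 endothelial genes Plat, the tissue plasminogen activator, was lower, with 8.84 in Tet2KO sham, 10.09 in WT sham, 11.27 in Tet2KO IR and 10.03 in WT IR. A second probe set had a ratio of -0.14.

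Matrix genes moved both ways. The collagen chain Col5a2 had 9.92 in Tet2KO sham, 6.92 in WT sham, 8.43 in Tet2KO IR and 6.46 in WT IR, and its second probe set was at least 3.50-fold higher in Tet2KO sham. Its partner chain Col5a1, named after its values were seen, had a log2 ratio of -0.04. The matrix glycoprotein Tnc was 2.79-fold lower, with 6.49 in Tet2KO sham, 7.97 in WT sham, 9.66 in Tet2KO IR and 7.20 in WT IR. The list of 23 fibroblast, mural and matrix genes had a median of 0.02.

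Of the 25 genes that were higher in Tet2KO sham, 15 belong to no list. Abhd1, which encodes an alpha/beta hydrolase, had 11.37 in Tet2KO sham, 7.21 in WT sham, 9.68 in Tet2KO IR and 7.56 in WT IR. Azgp1, a secreted glycoprotein that mobilises lipid, had 9.74 in Tet2KO sham, 5.88 in WT sham, 8.18 in Tet2KO IR and 5.94 in WT IR. In Abhd1, Azgp1 and Col5a2 both knockout-labelled arrays lay above both wild-type arrays, and among the knockout-labelled arrays the sham one was higher. Tmem87a, a Golgi membrane protein, also separated the genotypes, with 9.36 in Tet2KO sham, 7.44 in WT sham, 9.88 in Tet2KO IR and 6.82 in WT IR. Etnppl, a lyase of ethanolamine phosphate, did not: it had 9.25 in Tet2KO sham, 6.70 in WT sham, 5.89 in Tet2KO IR and 5.94 in WT IR.

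Among conjugating enzymes 3 of 28 measured glutathione, glucuronide and sulfate transferases were higher and 3 were lower, with a median of -0.03. The glutathione transferase Gsta2 had 11.79 in Tet2KO sham, 9.93 in WT sham, 12.99 in Tet2KO IR and 12.73 in WT IR, a 3.63-fold higher value in the sham pair. The glucuronosyltransferase Ugt2b37 was 3.23-fold higher, with 12.17 in Tet2KO sham, 10.48 in WT sham, 9.79 in Tet2KO IR and 10.17 in WT IR, and its relative Ugt2b5 was 2.83-fold higher, with 7.86 in Tet2KO sham and 6.36 in WT sham. Both families have closely similar members, so the share of each gene in its signal is uncertain. The sulfotransferase Sult1c2 was 2.43-fold lower, with 10.19 in Tet2KO sham, 11.47 in WT sham, 8.79 in Tet2KO IR and 11.35 in WT IR, and the glutathione transferases Gsta4 and Gstm2 were 2.30-fold and 2.02-fold lower. Within the glutathione transferases Gsta2 was thus higher and Gsta4 lower.

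In the serpin and acute phase list 2 of 13 genes were higher and 2 lower. Serpina1c, an alpha-1-antitrypsin gene, had 7.42 in Tet2KO sham and 5.40 in WT sham, at least 3.24-fold higher, while Serpina1b had 9.21 in Tet2KO sham and 10.41 in WT sham, 2.29-fold lower. These paralogs are near-identical and share probes, so the opposite signs are uncertain. The acute-phase haemoglobin scavenger Hp had 5.86 in Tet2KO sham, 7.77 in WT sham, 12.04 in Tet2KO IR and 6.17 in WT IR, 3.75-fold lower in the sham pair. Nat8f3, of the N-acetyltransferase 8 family, had 7.54 in Tet2KO sham, 4.59 in WT sham, 6.43 in Tet2KO IR and 4.65 in WT IR, at least 3.53-fold higher, and reached the floor only in the knockout-labelled arrays. Its relatives Nat8f2 and Nat8f4 had log2 ratios of 0.77 and 0.42.

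Asns and Psat1, both of amino acid synthesis, differed in opposite directions. Asns, the asparagine synthetase, was 2.91-fold higher, with 9.28 in Tet2KO sham, 7.73 in WT sham, 10.52 in Tet2KO IR and 9.13 in WT IR, and 3.72-fold on its other probe set. Psat1, of serine synthesis, was 3.02-fold lower, with 8.02 in Tet2KO sham, 9.61 in WT sham, 11.42 in Tet2KO IR and 10.99 in WT IR. Both are targets of the transcription factor ATF4, and the list of 26 unfolded protein and ATF4 genes had a median of -0.10 with 1 higher and 1 lower. Hsd11b1, which regenerates active glucocorticoid, was 2.38-fold higher, with 12.91 in Tet2KO sham, 11.66 in WT sham, 11.46 in Tet2KO IR and 11.37 in WT IR. The fatty acid hydroxylase Cyp4a31 was 2.30-fold higher and the ectonucleotidase Nt5e, which makes adenosine, 2.27-fold. The ribonucleotide reductase subunit Rrm2 was 2.02-fold higher, with 7.34 in Tet2KO sham, 6.32 in WT sham, 8.23 in Tet2KO IR and 8.08 in WT IR, in a cell cycle list with a median of 0.21 over 20 members.

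Glucocorticoid-responsive genes leaned lower. Of 20 measured members 19 were below 0 and 2 were lower at 2-fold, with a median of -0.34. Over all measured genes 5474 of 13474 were below 0 and 0.846% were lower at 2-fold. The 2 lower members are Dusp1, already counted in the immediate early list, and Pdk4, a kinase that shuts off pyruvate oxidation. Pdk4 had 8.14 in Tet2KO sham, 9.53 in WT sham, 11.45 in Tet2KO IR and 9.36 in WT IR, 2.63-fold lower in the sham pair. The zinc-finger gene Zbtb16 had 6.25 in Tet2KO sham and 7.23 in WT sham, and the clock gene Per1 8.03 in Tet2KO sham and 8.93 in WT sham. Fkbp5 and Tsc22d3, classical targets named after their values were seen, had log2 ratios of -0.11 and -0.07. Cholesterol synthesis genes leaned the other way, with 17 of 19 above 0, a median of 0.21 and 0 at 2-fold. Insig1, a brake on that pathway, had 9.54 in Tet2KO sham and 9.03 in WT sham, but Sc5d, a late enzyme of it, had 8.40 in Tet2KO sham and 9.28 in WT sham.

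The remaining lists had few or no members at 2-fold. Oxidative phosphorylation and cytosolic ribosome genes each had a median of 0.00, over 30 and 21 members, the core clock list one of -0.03 over 20, androgen-dependent kidney genes 0.01 over 14 and hypoxia and glycolysis genes -0.03 over 22, with 0 at 2-fold in each. The p53 list had a median of -0.22 over 18, with Btg2 its only member at 2-fold. Cell death genes had a median of 0.07 over 20, renin-angiotensin genes -0.07 over 10 and the reference genes 0.04 over 11, with 0 at 2-fold. Complement and coagulation genes had a median of 0.08 over 18, with 3 lower, Fgg, Fga and Plat. The NRF2 list had a median of 0.08 over 23 with the epoxide hydrolase Ephx1 2.02-fold lower, P450 genes 0.01 over 33, with Cyp4a31 alone at 2-fold, and PPAR alpha genes 0.13 over 25, with 1 higher and 1 lower. In all, 41 of the 46 lists had a median under 0.25 in size and 23 had no member at 2-fold.

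Outside the lists the largest lower values came from genes of several functions. Sptssb, a small subunit of the enzyme that starts sphingolipid synthesis, had 3.80 in Tet2KO sham, 9.44 in WT sham, 8.24 in Tet2KO IR and 7.14 in WT IR, at least 13.2-fold lower, and at least 4.08-fold on its other probe set. Ndrg4 had 6.35 in Tet2KO sham, 8.64 in WT sham, 6.10 in Tet2KO IR and 6.23 in WT IR, 4.89-fold lower and 6.56-fold on its other probe set, so that WT sham alone was high. The membrane protein gene Tmem26 had the same shape, with 6.71 in Tet2KO sham, 8.66 in WT sham, 6.53 in Tet2KO IR and 6.74 in WT IR, 3.86-fold lower. The mucin Muc20 was 3.57-fold lower and the surface antigen Ly6d 3.86-fold. A second probe set of Muc20 had a ratio of -0.03.

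The genes around Tet2 were examined because a targeted locus is inherited together with its flanks. In the gene order of the RefSeq table, 134 of the protein-coding genes within 100 places on either side of Tet2 were measured, of which 1 was higher and 2 lower at 2-fold (2.24%, against 1.03% of all measured genes). They are Etnppl, 17 places before Tet2, Mttp, 22 places after it, and Amy1, 95 places before it. Mttp, which loads lipid onto lipoproteins, had 7.07 in Tet2KO sham, 8.78 in WT sham, 6.79 in Tet2KO IR and 8.87 in WT IR, and was 3.28-fold lower in the sham pair, 2.38-fold on its other probe set. Both wild-type arrays were thus high in Mttp and both knockout-labelled arrays low. Amy1, an amylase, was 2.43-fold lower, with 5.85 in Tet2KO sham and 7.13 in WT sham. The neighbours' median log2 ratio was -0.0016 and their median size 0.13, against 0.11 over all measured genes. Chromosome 3 as a whole had 17 of 635 genes at 2-fold (2.68%), the highest share of any chromosome, followed by chromosome 12 with 2.30% and chromosome 18 with 2.12%. Outside the 100 genes on each side, 13 of 477 measured genes in the order table of chromosome 3 were at 2-fold, several of them members of the fat and injury lists such as Fabp4, Car3, S100a6, Fgg and Fga.

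**Figure D4:**
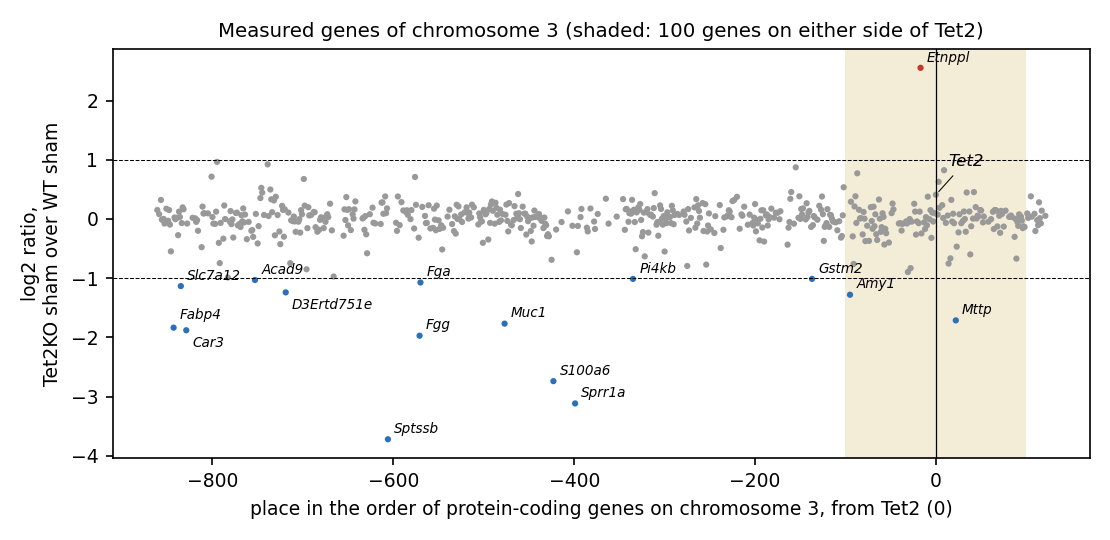
Log2 ratio of Tet2KO sham over WT sham (vertical axis) for measured protein-coding genes of chromosome 3 in their order from Tet2 at 0 (horizontal axis, in genes), with the 100 genes on each side shaded. Inside the shaded span Etnppl is higher and Mttp and Amy1 lower at 2-fold, and most lower genes of the chromosome lie far from Tet2.

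The genes that differed between the sham arrays were followed in the ischemia-reperfusion pair, which shares no array with the sham pair. Over 13492 genes measured there, 3.68% were higher and 3.99% lower at 2-fold in Tet2KO IR. Of the 25 genes higher in Tet2KO sham, 22 were measured, 9 of them (40.9%) were higher at 2-fold in Tet2KO IR and 0 were lower, and their median log2 ratio was 0.71, against -0.0086 over all genes. They are Abhd1, Azgp1, Col5a2, Tmem87a, BC023105, Asns, C920006O11Rik, Ctxn3 and AI506816, and AI506816 differed most there, with 9.27 in Tet2KO IR and 4.72 in WT IR. Of the 114 lower genes, 106 were measured, 16 (15.1%) were lower in Tet2KO IR and 20 (18.9%) were higher, with a median of 0.16. The lower genes thus split after injury, while no higher gene was lower there at 2-fold.

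The lower genes that were lower in both pairs include Sprr1a, Cryab, Mttp and Gm6958. Gm6958, a predicted gene, had 4.82 in Tet2KO sham, 7.94 in WT sham, 4.76 in Tet2KO IR and 8.20 in WT IR, so that it was over the floor in both wild-type arrays and under it in both knockout-labelled arrays. Its sham difference was at least 4.66-fold, and 2.98-fold on its other probe set. Those that turned round include 6 of the 7 lower fat markers measured after ischemia-reperfusion and 3 of the 7 lower injury genes. Hp was the extreme case, with a log2 ratio of -1.91 in the sham pair and 5.87 in the ischemia-reperfusion pair. The difference between the pairs was not tested.

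**Figure D5:**
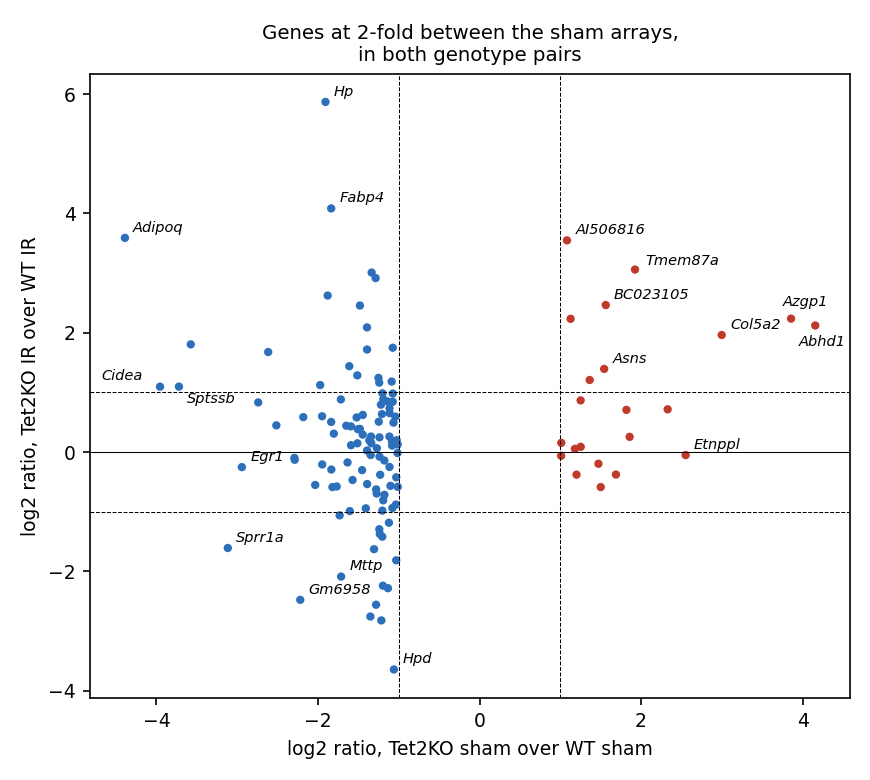
Log2 ratio of Tet2KO IR over WT IR (vertical axis) against that of Tet2KO sham over WT sham (horizontal axis) for genes at 2-fold between the sham arrays and measured in the ischemia-reperfusion pair, with dashed lines at 2-fold. Of 22 higher genes (red) 16 lie above 0 on the vertical axis, while the 106 lower genes (blue) spread to both sides, 60 above 0 and 46 below.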

How the data were processed

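Kidney RNA, pooled from 3 mice per group, was measured on 1 Affymetrix expression array per group, and the 4 deposited columns were all used. The values are log2 signals as deposited by the authors, a unit read from their range of 2.51 to 14.97. The submitters' processing notes name MAS5, with no version, and the authors' scaling and filters are not given in the sources used here. Column medians were 6.30 in Tet2KO sham, 6.33 in WT sham, 6.31 in Tet2KO IR and 6.28 in WT IR. Of 45037 probe sets, 34945 carry 1 gene symbol in the platform annotation, 932 carry several and 9160 are not listed there or have no symbol. A gene was read from its probe set with the highest mean signal over the arrays, with probe sets marked _x_at only where there was no other (100 of 18193 genes). The floor was set at percentile 40 of the signals of all arrays, a log2 signal of 5.72 (52.8 linear). Signals under it were raised to it before the log2 ratio was taken, and 4719 genes under it in both sham arrays were left out.

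With 1 array a group no test was possible, so genes were counted at 2-fold. The genes and lists were chosen with earlier results of these data known. Genes were named by rule: the Tet family, the 15 largest in each direction over the floor in both arrays, the 8 largest bounds, each list's members at 2-fold or its largest up to 3, up to 8 genes at 2-fold in both pairs in the same and in the opposite direction, and the 3 largest near Tet2. The 46 lists hold 982 distinct genes, of which 875 matched a probe set, 2 by an older symbol. Promoters came from the RefSeq table (GRCm38.p6). The files name no genome build, and the table's coordinates were used only for gene order and for these promoters. Python 3.11.15, numpy 2.4.6, pandas 2.3.3 and matplotlib 3.10.9 were used, and the calculation was tested on simulated data. Alternatives varied the floor, the pseudocount, the filter on low values, the probe set of a gene, the scaling and the threshold.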

Additional observations from a re-analysis of the deposited data

Results flagged for a closer look

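Some values had opposite signs in the sham pair and in the ischemia-reperfusion pair. Each pair has 1 array a side, so the difference between the pairs was not tested. All values are log2 ratios of the knockout-labelled over the wild-type array. Among fat genes, Adipoq had -4.39 after sham and 3.59 after ischemia-reperfusion, Cidea -3.96 and 1.10, Cox8b -3.58 and 1.81, Car3 -1.88 and 2.62, Fabp4 -1.84 and 4.08, and Plin4 -1.61 and 1.44, each in that order of treatments. Among injury and acute-phase genes, Nupr1 had -2.62 after sham and 1.68 after ischemia-reperfusion, Fgg -1.97 and 1.12, Hp -1.91 and 5.87, and Krt19 -1.51 and 1.29. The immediate early gene Junb had -1.24 after sham and 1.16 after ischemia-reperfusion, and Dusp1 -1.07 and 1.75. Sptssb had -3.72 after sham and 1.10 after ischemia-reperfusion, Tnc -1.48 and 2.46, Pdk4 -1.39 and 2.09, Ifi27l2a -1.34 and 3.01, and Plat -1.25 and 1.24.

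The medians of 7 lists also changed sign by more than the technical SD of each pair. The immediate early median was -0.22 after sham and 0.47 after ischemia-reperfusion, the tubular injury median -0.33 and 1.09, the fat median -0.46 and 0.61, and the glucocorticoid median -0.34 and 0.78. The mesothelium median, over 3 genes measured after sham, was -1.51 after sham and 1.29 after ischemia-reperfusion. MHC class II genes had 0.24 after sham and -0.40 after ischemia-reperfusion, and cholesterol synthesis genes 0.21 and -0.44.

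Probe sets that do not carry exactly 1 gene symbol entered no comparison above. Of 4148 measured in the sham pair, 6 were higher and 45 lower at 2-fold. The most extreme of them went beyond Adipoq and Abhd1, the extreme genes above. The lowest had 5.63 in Tet2KO sham, under the floor, and 11.47 in WT sham, a log2 ratio of -5.75 from the floor. It had 11.17 in Tet2KO IR and 5.51 in WT IR. The highest had 10.88 in Tet2KO sham and 6.54 in WT sham, a log2 ratio of 4.34.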

How the results depend on the processing

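No paired analysis was possible because each group has 1 array. With the 2-fold threshold kept, the 9 other settings gave 19 to 27 higher and 82 to 136 lower genes, against 25 and 114. With a threshold of 3 SD between probe sets of a gene, a log2 ratio of 0.567, 150 genes were higher and 346 lower, 13 neighbours of Tet2 passed it against 3 at 2-fold, and 126 genes passed it in both pairs in the same direction against 25. This follows from the lower threshold. The urothelium median of -1.51 was -1.13 with the floor at the 30th percentile, -0.93 at the 50th, -0.42 with a pseudocount, -0.52 over genes above the floor in both arrays and -0.85 with no floor. The fat median of -0.46 was -0.18 over genes above the floor in both arrays. In both lists the most different members lie near or under the floor. Of single genes, Fabp4 turned round with plain _at probe sets only, at 0.21 against -1.84, because another probe set then stands for it. The immediate early median stayed between -0.26 and -0.15 and the tubular injury median between -0.41 and -0.29 over the settings run. Of 414 list medians under an alternative, 404 moved by less than the technical SD, and of 1486 values of named genes 1345 did. Bounds depend on the floor, and 5 of the higher and 22 of the lower genes are bounds.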

Other observations

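The genes in this part were chosen after their values were seen. Several epithelial genes outside the lists were lower in Tet2KO sham. The transcription factor Klf5 had 6.43 in Tet2KO sham, 8.15 in WT sham, 8.66 in Tet2KO IR and 7.78 in WT IR, and was 3.29-fold lower in the sham pair. Its other measured probe set was at least 1.27-fold lower. Ehf, an epithelial ETS factor, had 7.98 in Tet2KO sham, 9.38 in WT sham, 8.15 in Tet2KO IR and 8.68 in WT IR, and was 2.62-fold lower, with 2 of its other 3 probe sets at 2-fold as well. The mucin Muc1 was 3.41-fold lower, with 7.26 in Tet2KO sham and 9.03 in WT sham. The tight-junction protein Cldn4 had 7.55 in Tet2KO sham, 8.84 in WT sham, 11.64 in Tet2KO IR and 8.73 in WT IR, 2.44-fold lower in the sham pair. Of these 4 genes Tet2KO sham was the lowest array in each, which follows in part from their choice as lower genes.

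The nuclear long noncoding RNA Malat1 was lower on all 7 of its probe sets. Its brightest had 10.83 in Tet2KO sham, 11.97 in WT sham, 12.74 in Tet2KO IR and 11.89 in WT IR, 2.20-fold lower in the sham pair. The other 6 had sham log2 ratios from -2.14 to -0.42.

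Of tubular transport and amino acid breakdown genes, 4 that were lower in the knockout-labelled array of both pairs are given here, while none of the 44 measured proximal tubule markers was at 2-fold in the sham pair. Hpd, an enzyme of tyrosine breakdown, had 10.13 in Tet2KO sham, 11.19 in WT sham, 7.17 in Tet2KO IR and 10.82 in WT IR. Uroc1, the urocanase of histidine breakdown, had 8.64 in Tet2KO sham, 9.99 in WT sham, 6.41 in Tet2KO IR and 9.17 in WT IR. The organic anion transporter Slco4c1 had 8.71 in Tet2KO sham, 9.90 in WT sham, 4.26 in Tet2KO IR and 7.96 in WT IR. The amino acid transporter Slc7a12 had 7.49 in Tet2KO sham, 8.63 in WT sham, 4.89 in Tet2KO IR and 8.004 in WT IR. In all 4 genes each knockout-labelled array lay under the wild-type array of its treatment, and the difference was larger after ischemia-reperfusion. Slco4c1 and Slc7a12 were under the floor in Tet2KO IR, so their differences there are bounds, at least 4.72-fold and at least 4.86-fold. The other measured probe set of Uroc1 had the same sign in the sham pair but was short of 2-fold.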
